A study of Mus musculus with 6 samples.

Results

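The 46 genes described here are interferon receptor chains, interferon-regulated transcription factors and antiviral genes that interferon induces, followed in mouse liver tumour cell lines. They were taken by gene symbol from a list of interferon regulators and antiviral genes, and all 46 had a row among the 53465 genes of the count table. RNA was sequenced from 3 Myc_Utx and 3 Myc_p53 primary liver cancer cell lines of C57BL/6 background, each grown from the tumour of a different mouse. In both groups, hepatocytes of adult mice had received a Sleeping Beauty transposon that expresses Myc under a constitutive promoter, together with a plasmid that encodes Cas9 and a single guide RNA. The guide targeted Kdm6a, also known as Utx and encoding a histone H3K27 demethylase, in the Myc_Utx group, and another tumour suppressor in the Myc_p53 group, which served as the control. The cultures were passaged on collagen until other cell types were no longer visible. No line without a guide against a tumour suppressor was compared, so loss of Kdm6a in the Myc_Utx group and the knockout carried by the Myc_p53 group cannot be told apart as sources of a difference. The lines were labelled 2A, 2B and 2D for Myc_Utx and 1, 2 and 3 for Myc_p53, and each line counted as 1 replicate.

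Interferons are secreted proteins that warn cells of infection. Type I interferons bind the receptor made of Ifnar1 and Ifnar2, and interferon gamma binds the receptor made of Ifngr1 and Ifngr2. Both receptors pass the signal through JAK kinases to STAT proteins. A STAT complex that contains STAT2 and IRF9 then binds the interferon-stimulated response element (ISRE) of antiviral genes, whereas STAT dimers bind the gamma-activated site (GAS). Many cells keep a low tonic level of this programme without infection. In liver, interferon-stimulated genes are best known for their part in the response to hepatitis viruses.

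Total counts ranged from 4656103 to 5473042 in Myc_Utx lines and from 5370608 to 6937497 in Myc_p53 lines. Levels are given as CPM, counts scaled to the library total in the usual way, after TMM normalization, which allows for libraries of different composition. Log2 fold changes are Myc_Utx over Myc_p53 with their standard error (SE). Adjusted p-values come from edgeR (quasi-likelihood F test, Benjamini-Hochberg adjustment over the 11510 genes tested), and a gene was called at an adjusted p under 0.05. Kdm6a mRNA was at 39.7, 45.7 and 49.0 CPM in Myc_Utx 2A, 2B and 2D and at 69.5, 64.5 and 42.5 CPM in Myc_p53 1, 2 and 3. The groups overlapped, with a log2 fold change of -0.39 (SE 0.22, adjusted p = 0.243), and small Cas9 deletions need not lower an mRNA. Counts of the hepatocyte gene Alb were 26 or fewer in every line. Of 11 hepatocyte and liver tumour markers, 5 were tested and only Apob was called by edgeR, with 0, 6 and 1 counts in Myc_Utx lines and 88, 71 and 378 in Myc_p53 lines (adjusted p = 0.0240). Apob passed the filter on low counts only through the Myc_p53 lines, so its direction was fixed by the filter. The epithelial keratin Krt8 had 4537 and 3130 counts in Myc_p53 1 and 3, 83 in Myc_p53 2, 61 and 200 in Myc_Utx 2A and 2B, and 0 in Myc_Utx 2D.

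Most interferon genes that could be tested had lower levels in Myc_Utx lines, but few passed the test, and Irf3 and Ifitm2 were higher. Of the 46 genes, 28 passed the filter on low counts. Of these, 5 were lower in Myc_Utx lines (Ifngr1, Irf1, Usp18, Trim25 and Oasl1) and 2 were higher (Irf3 and Ifitm2), while 21 were not called. Over all genes tested, 7.69% were called lower and 6.99% higher, so 5 and 2 of 28 are counts read against that background. The log2 fold change was below 0 for 21 of the 28 genes, which is 75%, against 50.8% of all genes tested. Its median was -0.91 for the 28 genes and -0.01 for all genes. Every Myc_Utx line lay below every Myc_p53 line for 9 of the 28 genes, against 20.9% of all genes tested. The reverse order held for Irf3, Ifitm1 and Ifitm2, 3 of the 28 genes, against 21.1% of all genes. Usp18 and Oasl1, with 0 or 1 counts in Myc_Utx lines, passed the filter only through the Myc_p53 lines, so their direction was fixed by the filter. These counts do not cover the 18 genes that did not pass it. In bulk RNA, fewer cells that express a gene and less RNA of it per cell cannot be told apart.

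**Figure D1:**
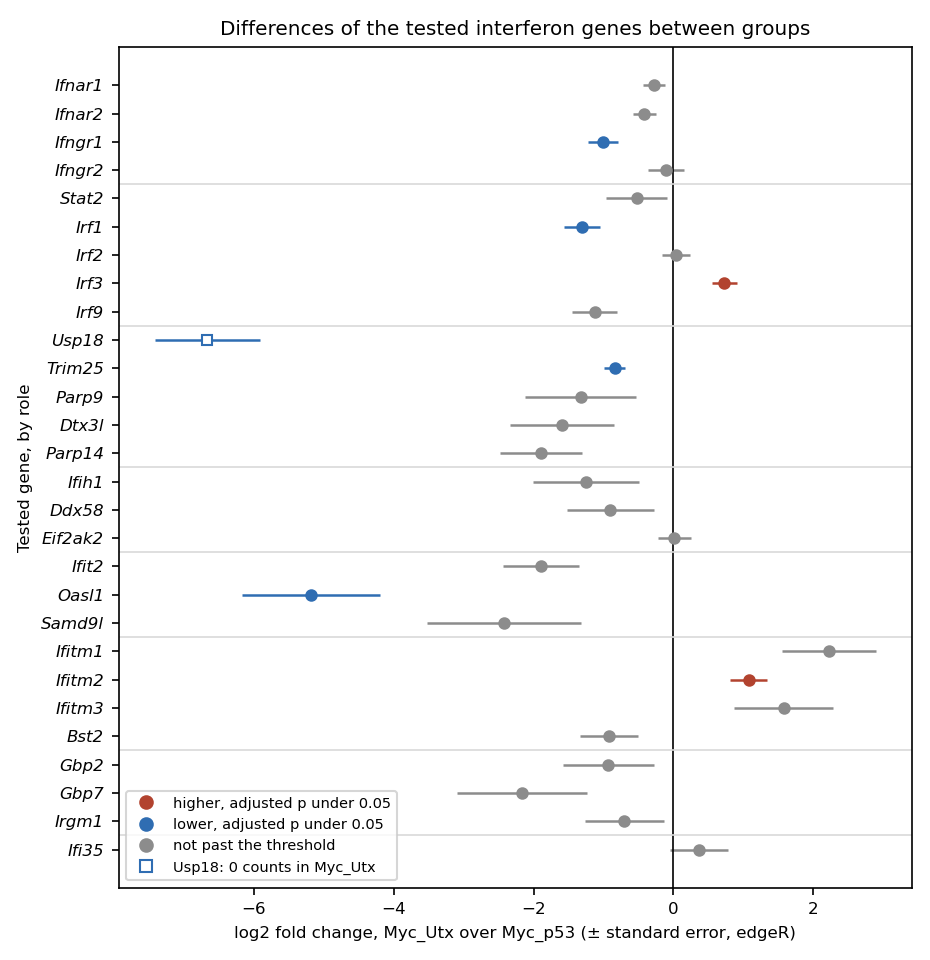
Log2 fold change (x axis, Myc_Utx over Myc_p53) of each of the 28 tested interferon genes (y axis, grouped by role), with bars of 1 standard error from the edgeR fit. Coloured points passed an adjusted p of 0.05, the open square marks Usp18, whose fitted value of -6.67 rests on 0 counts in every Myc_Utx line, and 21 of the 28 points lie left of 0.

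The promoters of these genes are shown first, because the ISRE and the GAS are the features by which the family is known. In the 300-base windows of RefSeq, build GRCm38.p6, that run from 250 bases before to 50 bases after a start site, 37 of the 46 genes had an entry. The ISRE was searched as GAAANNGAAA on both strands and the GAS as TTCNNNGAA, which reads the same on both strands, and the patterns may overlap. A gene counted if any of its windows held the letters. The ISRE letters stood in 19 of the 37 genes (51.4%), against 1079 of 27025 genes in the table (3.99%). GAS letters stood in 12 of the 37 (32.4%), against 2582 of the 27025 (9.55%). A match is a run of letters and not a measured binding site. Among the 6 called genes with a window, Ifitm2 was the only gene with the ISRE letters and Irf1 the only gene with the GAS letters, whereas 10 of the 19 tested genes that were not called held the ISRE letters. Windows are printed in the direction of the gene, from 250 bases before to 30 bases after the start, for antiviral genes of either direction and for Irf1, with the matched letters in capitals. Capitals mark the ISRE for Ifit3 (chr19:34583279-34583558, plus strand), Isg15 (chr4:156200789-156201068, minus strand), Ifitm2 (chr7:140955932-140956211, minus strand) and Ifitm3 (chr7:141010715-141010994, minus strand), and the GAS for Irf1 (chr11:53769764-53770043, plus strand).
Ifit3: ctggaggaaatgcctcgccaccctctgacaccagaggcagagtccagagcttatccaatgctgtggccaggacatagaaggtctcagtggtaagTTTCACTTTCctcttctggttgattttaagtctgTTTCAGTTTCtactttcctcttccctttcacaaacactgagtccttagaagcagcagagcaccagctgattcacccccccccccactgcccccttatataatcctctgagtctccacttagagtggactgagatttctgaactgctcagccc
Isg15: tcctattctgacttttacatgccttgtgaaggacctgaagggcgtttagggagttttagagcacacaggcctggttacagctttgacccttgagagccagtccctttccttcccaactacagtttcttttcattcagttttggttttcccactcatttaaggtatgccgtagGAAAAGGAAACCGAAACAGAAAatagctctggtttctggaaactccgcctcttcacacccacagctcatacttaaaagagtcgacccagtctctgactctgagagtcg
Ifitm2: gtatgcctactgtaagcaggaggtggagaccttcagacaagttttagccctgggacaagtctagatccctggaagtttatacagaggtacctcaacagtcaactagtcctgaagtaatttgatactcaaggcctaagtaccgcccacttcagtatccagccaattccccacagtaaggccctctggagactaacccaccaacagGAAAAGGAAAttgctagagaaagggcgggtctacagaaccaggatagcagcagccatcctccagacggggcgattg
Ifitm3: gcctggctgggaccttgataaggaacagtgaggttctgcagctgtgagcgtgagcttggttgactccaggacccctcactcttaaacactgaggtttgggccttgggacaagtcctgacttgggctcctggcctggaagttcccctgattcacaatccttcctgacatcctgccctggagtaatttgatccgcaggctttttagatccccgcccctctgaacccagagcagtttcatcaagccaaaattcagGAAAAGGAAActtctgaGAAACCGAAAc
Irf1: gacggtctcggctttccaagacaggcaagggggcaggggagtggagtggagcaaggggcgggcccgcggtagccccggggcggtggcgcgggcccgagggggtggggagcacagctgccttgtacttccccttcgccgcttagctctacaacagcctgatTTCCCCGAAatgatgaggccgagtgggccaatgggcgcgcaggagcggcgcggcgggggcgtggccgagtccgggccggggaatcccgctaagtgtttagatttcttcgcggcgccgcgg
Ifit3 and Isg15 carry the letters upstream of the start site, Ifit3 in 2 places and Isg15 in overlapping copies. Ifitm3 carries them just downstream of its start.

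Among the receptor chains, Ifngr1 was lower in Myc_Utx lines and the other 3 were not called. Ifngr1, the ligand-binding chain for interferon gamma (chromosome 10, 19591949 to 19610229, GRCm38), was at 32.9, 31.8 and 28.7 CPM in Myc_Utx 2A, 2B and 2D and at 51.5, 55.1 and 81.1 CPM in Myc_p53 1, 2 and 3. The groups did not overlap, and line 3 was the highest. The means were 31.2 ± 2.17 and 62.6 ± 16.2 CPM (SD, n = 3), with a log2 fold change of -1.01 (SE 0.21, adjusted p = 0.0308). Its partner Ifngr2 was at 32.9, 32.6 and 29.0 CPM in Myc_Utx lines and at 26.4, 28.2 and 46.9 CPM in Myc_p53 lines. These values overlapped, and the log2 fold change was -0.10 (SE 0.25, adjusted p = 0.792). Ifnar1, a chain of the type I receptor, was at 72.2, 63.7 and 60.6 CPM in Myc_Utx lines and at 78.1, 92.3 and 68.0 CPM in Myc_p53 lines. It also overlapped between the groups (log2 fold change -0.28, SE 0.16, adjusted p = 0.249). Ifnar2, the other chain, was at 34.3, 29.8 and 30.7 CPM in Myc_Utx lines and at 35.2, 46.5 and 44.8 CPM in Myc_p53 lines. Myc_Utx 2A and Myc_p53 1 nearly touched, and the adjusted p was 0.132 for a log2 fold change of -0.42 (SE 0.17).

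The transcription factors split, with Irf1 lower and Irf3 higher in Myc_Utx lines. Irf1, a factor induced by interferon gamma that activates antiviral and antigen presentation genes (chromosome 11, 53770014 to 53778374), was at 28.5, 22.7 and 21.4 CPM in Myc_Utx 2A, 2B and 2D and at 41.1, 65.2 and 73.3 CPM in Myc_p53 1, 2 and 3. All Myc_Utx lines lay below all Myc_p53 lines. The log2 fold change was -1.31 (SE 0.26, adjusted p = 0.0272), a 2.47-fold higher level in Myc_p53 lines. Irf3, which lies latent in the cytoplasm and switches on interferon beta after viral sensing (chromosome 7, 44997648 to 45002848), was at 49.3, 47.9 and 54.3 CPM in Myc_Utx lines and at 34.5, 24.1 and 32.9 CPM in Myc_p53 lines. The Myc_Utx lines were close together and above all Myc_p53 lines. Its log2 fold change was 0.73 (SE 0.18, adjusted p = 0.0451), just inside the threshold. That call was lost without a filter, with a stricter filter of 10 or more counts in each line, with scaling by total counts alone and with transcript length offsets (adjusted p 0.0503 to 0.0602). Irf3 shares 1065 bases on the opposite strand with Bcl2l12, and whether counting used the strand was not given in the sources used here.

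Irf9, the DNA-binding subunit of the complex with STAT2, was at 11.2, 5.99 and 8.02 CPM in Myc_Utx 2A, 2B and 2D and at 14.1, 23.0 and 17.97 CPM in Myc_p53 1, 2 and 3. Its groups did not overlap, and the adjusted p was 0.0612 for a log2 fold change of -1.13 (SE 0.32). Stat2, its partner, ranged from 9.17 to 15.8 CPM in Myc_Utx lines and from 11.4 to 28.0 CPM in Myc_p53 lines (log2 fold change -0.53, adjusted p = 0.420). Irf2, which competes with Irf1 for its sites, had nearly equal means of 28.2 ± 5.91 and 27.5 ± 1.74 CPM (SD, n = 3; adjusted p = 0.915). Irf7, the factor that amplifies the type I response, had 3, 2 and 0 counts in Myc_Utx lines and 4, 10 and 6 in Myc_p53 lines and was not tested. These counts are too few to place Irf7 beyond saying that the groups did not overlap.

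In the ISG15 system, Usp18 and Trim25 were lower in Myc_Utx lines. Usp18 removes ISG15 from proteins and blocks the type I receptor as a feedback inhibitor. It lies on chromosome 6 from 121245906 to 121270917 and had 0 counts in each of Myc_Utx 2A, 2B and 2D, against 15, 12 and 15 counts in Myc_p53 1, 2 and 3. The Myc_p53 lines were thus alike at 2.37, 2.22 and 2.14 CPM, and no Usp18 read was counted in a Myc_Utx line. Against a floor of 3 counts per library, Usp18 was at least 3.68-fold lower in Myc_Utx lines. The adjusted p of 0.0185 from edgeR belongs to the fitted log2 fold change of -6.67 and not to this bound. Usp18 passed the filter only through the Myc_p53 lines, so its direction was fixed by the filter. Trim25, a ubiquitin ligase that activates the RNA sensor RIG-I (chromosome 11, 88999376 to 89020293), was at 108.5, 104.1 and 93.5 CPM in Myc_Utx lines and at 214.1, 177.9 and 154.7 CPM in Myc_p53 lines. Its groups lay well apart, and the log2 fold change was -0.84 (SE 0.15, adjusted p = 0.0226). Isg15 itself, the ubiquitin-like modifier, had 4, 0 and 3 counts in Myc_Utx lines and 5, 16 and 8 in Myc_p53 lines. It was not tested, and its printed promoter with overlapping ISRE copies belonged to a gene near the detection limit in all 6 lines.

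The PARP genes and Dtx3l showed wide spread between lines of a group. Parp14, an ADP-ribosyltransferase, was at 8.78, 2.06 and 4.68 CPM in Myc_Utx 2A, 2B and 2D and at 13.3, 29.8 and 14.7 CPM in Myc_p53 1, 2 and 3. Its groups did not overlap, and the log2 fold change was -1.89 (SE 0.58, adjusted p = 0.0730). Parp9, which acts as a pair with Dtx3l in ADP-ribosylation and ubiquitination, was at 15.4, 1.498 and 4.45 CPM in Myc_Utx lines and at 10.1, 25.6 and 17.97 CPM in Myc_p53 lines (log2 fold change -1.33, SE 0.80, adjusted p = 0.277). Dtx3l was at 13.8, 1.31 and 6.90 CPM in Myc_Utx lines and at 13.3, 28.9 and 24.0 CPM in Myc_p53 lines (log2 fold change -1.59, SE 0.74, adjusted p = 0.182). For both, Myc_Utx 2A reached the level of Myc_p53 1 and Myc_Utx 2B was the lowest line. Parp9 and Dtx3l overlap by 682 bases on opposite strands, so reads there may count for either. Parp9 also shares 5854 bases on the opposite strand with Gm15564, which reached 211 counts in a line, against at most 138 for Parp9.

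None of the sensors of foreign nucleic acid was called. Ifih1, the long double-stranded RNA sensor MDA5, was at 9.77, 1.87 and 2.90 CPM in Myc_Utx 2A, 2B and 2D and at 4.58, 18.9 and 11.3 CPM in Myc_p53 1, 2 and 3. It overlapped between the groups, since Myc_Utx 2A lay above Myc_p53 1 (log2 fold change -1.25, SE 0.76, adjusted p = 0.282). Ddx58, which encodes RIG-I, ranged from 6.46 to 20.1 CPM in Myc_Utx lines and from 8.53 to 37.8 CPM in Myc_p53 lines (log2 fold change -0.90, adjusted p = 0.343). Eif2ak2, the kinase PKR that halts translation, had means of 44.1 ± 2.00 and 43.7 ± 13.6 CPM (SD, n = 3; adjusted p = 0.972). Dhx58, the regulator LGP2, had 4 to 12 counts in Myc_Utx lines and 6 to 16 in Myc_p53 lines, and Zbp1, a sensor of Z-form nucleic acid, had at most 3 counts in any line. Neither was tested.

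Of the 12 IFIT, OAS and MX effectors, 3 had enough counts to be tested, and Oasl1 was called lower in Myc_Utx lines. Oasl1, an OAS-like protein that restrains translation of Irf7 (chromosome 5, 114923240 to 114937915), had 1, 0 and 0 counts in Myc_Utx 2A, 2B and 2D and 36, 10 and 15 counts in Myc_p53 1, 2 and 3. All Myc_p53 lines were above all Myc_Utx lines, but Oasl1 passed the filter only through the Myc_p53 lines, so its direction was fixed. The adjusted p was 0.0257, and the pooled counts gave a ratio of 48.3 in favour of Myc_p53 lines with a 95% interval of 8.36 to 1940, which covers counting error only. Ifit2, which binds viral RNA and slows translation, was at 12.2, 10.5 and 5.57 CPM in Myc_Utx lines and at 62.4, 18.2 and 25.0 CPM in Myc_p53 lines. The groups did not overlap, and the log2 fold change was -1.90 (SE 0.54, adjusted p = 0.0614). Samd9l, an antiviral factor and growth inhibitor, was at 17.8, 3.56 and 3.79 CPM in Myc_Utx lines and at 75.9, 3.89 and 55.2 CPM in Myc_p53 lines. Myc_p53 2 was at the level of the lower Myc_Utx lines, and the adjusted p was 0.172 (log2 fold change -2.42, SE 1.10).

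Of the untested effectors, Ifit3 differed the most in counts. Ifit3, a partner of Ifit1 in RNA binding (chromosome 19, 34583531 to 34588731), had 2, 1 and 1 counts in Myc_Utx 2A, 2B and 2D and 54, 5 and 89 in Myc_p53 1, 2 and 3. Myc_p53 2 lay near the Myc_Utx lines, and the filter, which needs enough lines with at least 10 counts, left the gene out. The ratio of pooled counts was 29.3 (counting interval 11.2 to 109). With no filter the adjusted p was 0.0239, and with DESeq2 it was 0.00112. Oasl2 had 0 counts in every Myc_Utx line and 1, 8 and 7 in Myc_p53 lines, at least 1.44-fold lower in Myc_Utx lines. Rsad2, the enzyme viperin, had 0 counts in every Myc_Utx line and 2, 7 and 3 in Myc_p53 lines, at least 1.12-fold lower. Both bounds set the mean of the Myc_p53 lines against the floor of 3 counts. Myc_p53 1 for both genes and Myc_p53 3 for Rsad2 did not exceed that floor. Each Myc_p53 line had reads of both genes and no Myc_Utx line did, but the reads were very few. Oas3, which makes the oligoadenylates that activate RNase L, had 16, 6 and 3 counts in Myc_Utx lines and 1, 17 and 7 in Myc_p53 lines, 25 in all for each group. Ifit1, Oas1a and Oas2 reached at most 11 counts in any line. Mx1 and Mx2, antiviral GTPases that carry inactivating mutations in most laboratory mouse strains, reached at most 5. For 10 of the 18 untested genes of the whole list, the counting interval of the ratio of pooled counts lay above 1, and for 13 of the 18 the highest count in any line was under 20. The share of all untested genes with such an interval was not computed, so the 10 have no background to be read against. The interval also leaves out the spread between lines.

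**Figure D2:**
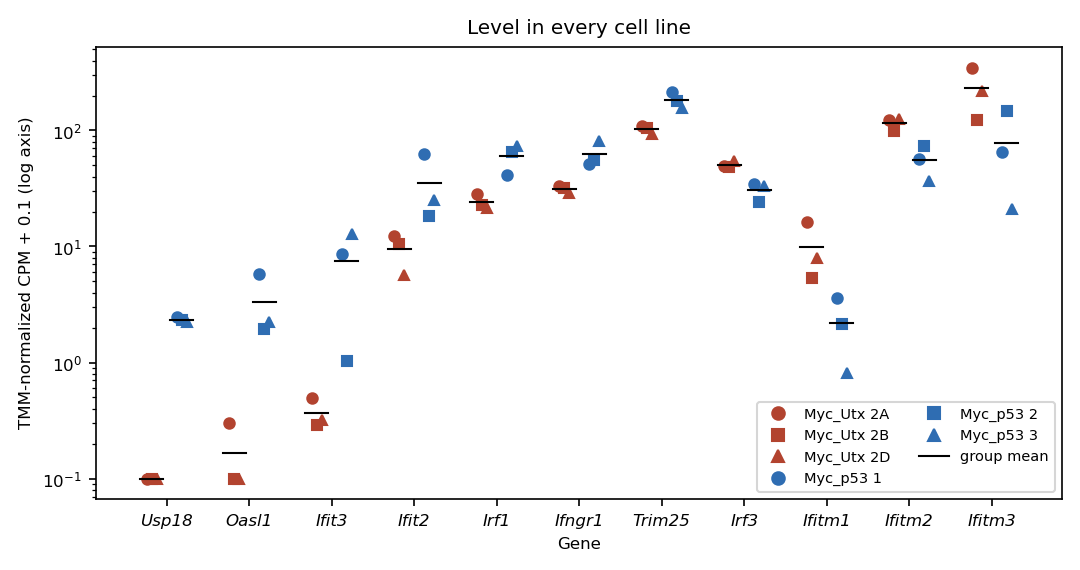
TMM-normalized CPM plus 0.1 (y axis, log scale) of 11 interferon genes (x axis) in each of the 6 cell lines, with red points for Myc_Utx, blue points for Myc_p53, a symbol for each line and black bars for group means. Usp18 sits at the bottom of the axis (0 counts) in all 3 Myc_Utx lines, Myc_p53 2 is apart from Myc_p53 1 and 3 for Ifit3, and the Ifitm genes are the only ones besides Irf3 with higher means in Myc_Utx lines.

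Of the 4 membrane restriction factors, Ifitm2 was higher in Myc_Utx lines and the other 3 were not called. Ifitm1, Ifitm2 and Ifitm3 encode small membrane proteins that hinder fusion of viruses with the cell, and they lie near each other on chromosome 7. Ifitm2 (140954837 to 140955987) was at 124.2, 98.9 and 126.3 CPM in Myc_Utx 2A, 2B and 2D and at 56.3, 73.0 and 36.8 CPM in Myc_p53 1, 2 and 3. All Myc_Utx lines were above all Myc_p53 lines, with a log2 fold change of 1.07 (SE 0.26, adjusted p = 0.0433). With transcript length offsets it was 0.76 and no longer called (adjusted p = 0.0824). Ifitm1 (140967221 to 140969825) was at 16.2, 5.24 and 7.79 CPM in Myc_Utx lines and at 3.48, 2.04 and 0.713 CPM in Myc_p53 lines. Its groups also lay apart, and the adjusted p was 0.0700 for a log2 fold change of 2.22 (SE 0.67). Ifitm3 (141009586 to 141010770) was at 348.6, 122.6 and 219.8 CPM in Myc_Utx lines and at 65.0, 146.6 and 20.8 CPM in Myc_p53 lines. Myc_p53 2 lay above Myc_Utx 2B, and the adjusted p was 0.169 (log2 fold change 1.58, SE 0.71). These genes are closely related in sequence, and how reads that match more than 1 of them were counted was not given in the sources used here. Bst2, or tetherin, which holds budding viruses at the cell surface, ranged from 8.58 to 19.6 CPM in Myc_Utx lines and from 15.9 to 36.5 CPM in Myc_p53 lines (log2 fold change -0.92, adjusted p = 0.170).

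Per kilobase of transcript, Ifitm3 and Ifitm2 had the highest mean levels of the 46 genes. Over the 6 lines, Ifitm3 averaged 227 ± 173 and Ifitm2 131 ± 56.0 CPM per kilobase (SD). Trim25 followed with 24.7 ± 8.36 and Bst2 with 21.6 ± 11.0 CPM per kilobase. The 6-line ranges of Ifitm3 and Ifitm2, and of Trim25 and Bst2, were wide enough that the order within each pair is not distinct from the spread between lines. Summed over Ifitm1, Ifitm2 and Ifitm3, the level was 489.0, 226.7 and 353.9 CPM in Myc_Utx 2A, 2B and 2D and 124.7, 221.7 and 58.3 CPM in Myc_p53 1, 2 and 3. The sum over the other 43 genes, a split made after the values had been seen, was 629.6, 507.8 and 501.5 CPM in Myc_Utx lines and 854.0, 913.8 and 907.7 CPM in Myc_p53 lines. Neither sum overlapped between the groups, and they pointed in opposite directions, but a split made with the values known lends this contrast no weight. The sum over all 46 genes did overlap. It was 1119, 734.6 and 855.3 CPM in Myc_Utx lines and 978.7, 1135 and 966 CPM in Myc_p53 lines.

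The GBP and IRG GTPases, which coat vacuoles of intracellular pathogens and are strongly induced by interferon gamma, had no gene called by edgeR. Gbp7 was at 2.19, 0.375 and 0.668 CPM in Myc_Utx 2A, 2B and 2D and at 1.42, 10.2 and 3.28 CPM in Myc_p53 1, 2 and 3. It was highest in Myc_p53 2 and overlapped between the groups (log2 fold change -2.17, SE 0.93, adjusted p = 0.152). Gbp2 ranged from 2.25 to 9.37 CPM in Myc_Utx lines and from 6.32 to 21.5 CPM in Myc_p53 lines (log2 fold change -0.93, adjusted p = 0.349). Irgm1 ranged from 11.4 to 26.5 CPM and from 13.5 to 57.6 CPM in the same order (log2 fold change -0.70, adjusted p = 0.413). Igtp had 3, 0 and 0 counts in Myc_Utx lines and 4, 27 and 39 in Myc_p53 lines, and Gbp3 had 1 to 6 and 5 to 32 counts. Neither passed the filter of edgeR, and DESeq2 gave Igtp an adjusted p of 0.0317. The Igtp counts are uncertain because the gene shares 7974 bases on the same strand with Irgm2. Of the further induced genes, Ifi35 had means of 14.5 ± 1.32 and 11.2 ± 6.42 CPM (SD, n = 3; adjusted p = 0.560). Rtp4, Xaf1 and Ifi44 were not tested. Their highest counts were 21 for Rtp4 and 20 for Xaf1, both in Myc_p53 lines, and 4 for Ifi44.

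The lines of a group were not alike for these genes. Among the Myc_Utx lines, 2A was the highest for 23 of the 28 tested genes, and 2B was the lowest for 15 and the highest for none, with ties left out. Among the Myc_p53 lines, line 2 was the highest for 16 genes and line 1 the lowest for 15. The genes nevertheless did not follow a single order of lines, since line 1 led for Ifit2, Oasl1, Samd9l and Bst2, whereas line 2 led for the PARP genes, the RNA sensors, Gbp2 and Gbp7. The median SD of log2 CPM between lines was 0.41 for the 28 genes and 0.20 for all genes tested in Myc_Utx, and 0.61 and 0.28 in Myc_p53. The 28 genes were also lower, with a median level of 20.9 CPM against 38.6 CPM, and the part of the level in this spread was not tested. Root mean square differences in log2 CPM over the 28 genes were taken between lines. They were 1.29 for Myc_Utx 2A and 2B, 0.92 for 2A and 2D and 0.74 for 2B and 2D. Between Myc_p53 lines they were 1.40 for 1 and 2, 0.85 for 1 and 3 and 1.18 for 2 and 3. Between the groups they ran from 1.31 (Myc_Utx 2A and Myc_p53 2) to 1.99 (Myc_Utx 2B and Myc_p53 2). For all genes tested, they were 0.71 to 0.78 between Myc_Utx lines, 0.73 to 1.02 between Myc_p53 lines and 1.11 to 1.315 between the groups.

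**Figure D3:**
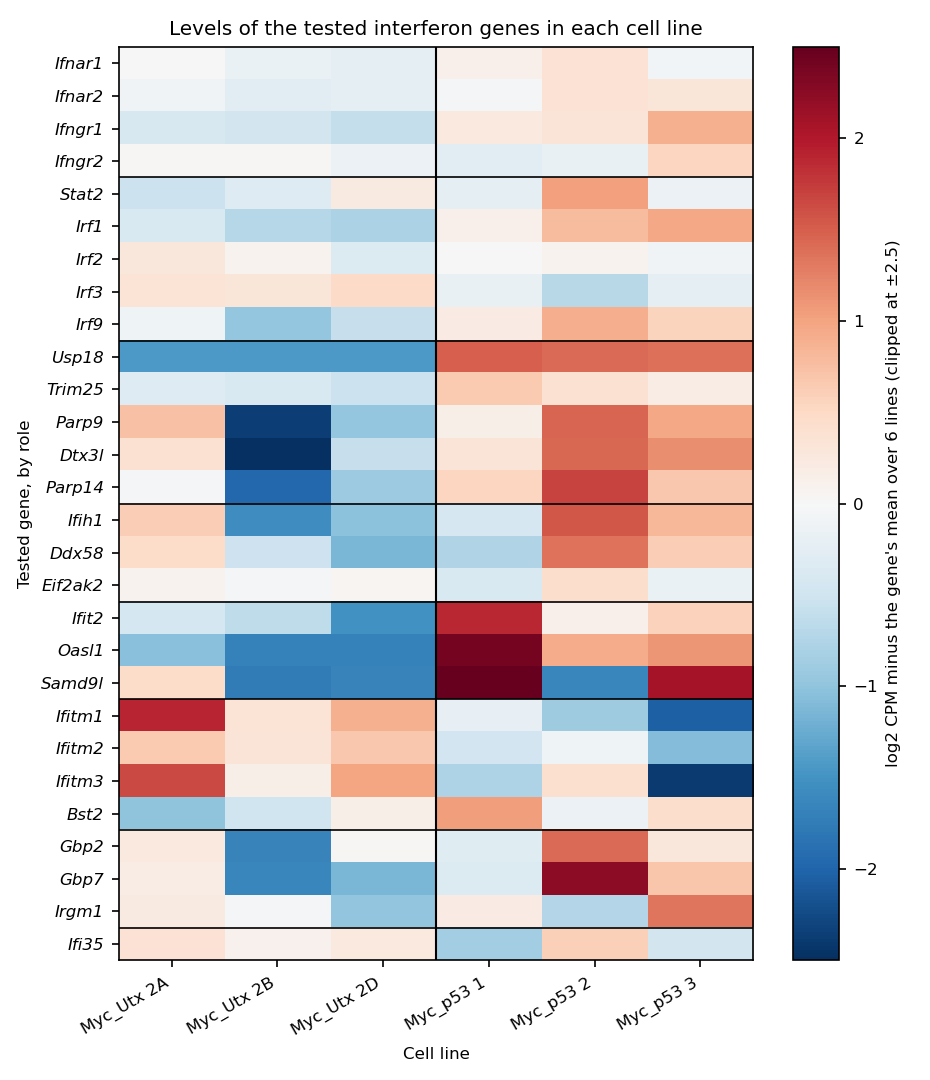
Log2 CPM of the 28 tested interferon genes (rows, grouped by role) in each cell line (columns), minus the mean of the gene over the 6 lines, with red for above and blue for below that mean and colours clipped at 2.5. Myc_Utx 2B is the bluest of its group for the PARP genes, Ifih1, Gbp2 and Gbp7, Myc_p53 1 is reddest for Ifit2, Oasl1 and Samd9l, and Myc_p53 2 for Parp14 and Gbp7.

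The 7 calls did not all hold when a line was left out. Without Myc_Utx 2A, 2B or 2D or without Myc_p53 3, none of the 46 genes was called by edgeR. In those fits 7 to 13 of the genes were lower and 2 to 4 higher at an unadjusted p under 0.05. Over all genes, 3125 to 3499 of the 11714 to 12127 tested were under that p in either direction. Over all genes, 3 were then called higher and 1 lower without Myc_Utx 2A, against 805 and 885 with all lines. These counts were 43 and 38 without Myc_Utx 2B, 43 and 28 without Myc_Utx 2D and 63 and 57 without Myc_p53 3. Few genes of any kind were thus called in these fits. Without Myc_p53 1, Ifngr1, Irf1 and Trim25 were called, beside 481 genes higher and 627 lower of the 11777 tested. Without Myc_p53 2, 8 genes were called lower, with Ifit2 (adjusted p = 0.0415), Samd9l (adjusted p = 0.0482) and Ifit3 joining the 5. In that fit 836 of all 11927 genes tested were called higher and 1118 lower. The signs of the 7 called genes were the same in all these fits in which they were kept.

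The remaining genes of the pathway, 87 in a list by role, pointed the same way as the majority. Of the 43 tested, 9 were lower and 1 higher in Myc_Utx lines, against 7.69% and 6.99% of all genes tested, and their median log2 fold change was -0.73. Irgm2 and Cxcl10, described below, were among the 9 and passed the filter only through the Myc_p53 lines. The same held for Slfn2 and Tlr3, which were tested but not called. The direction of all these genes was fixed by the filter, and they enter the median. The 8 interferon ligands in the list, among them Ifnb1, Ifna4 and Ifng, had 0 counts in every line, for which the upper limit is 3 counts per library. Of the kinases, Jak1, which serves both receptors, was at 138.2, 141.7 and 147.6 CPM in Myc_Utx 2A, 2B and 2D and at 192.2, 289.9 and 227.4 CPM in Myc_p53 1, 2 and 3 (log2 fold change -0.73, SE 0.16, adjusted p = 0.0363). Jak2, which serves the interferon gamma receptor, was at 40.3, 26.4 and 26.1 CPM in Myc_Utx lines and at 59.3, 55.8 and 69.3 CPM in Myc_p53 lines (log2 fold change -0.99, SE 0.22, adjusted p = 0.0345). Like Ifngr1, Jak1 and Jak2 were below every Myc_p53 line in every Myc_Utx line. Tyk2, the kinase of the type I receptor, had a log2 fold change of -0.10 (SE 0.22, adjusted p = 0.771).

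Among 11 genes that induce interferon, such as Mavs and Tbk1, 9 were tested and none called by edgeR. An unadjusted p under 0.05 was found for 4 of the 9, among them Tlr3, whose direction was fixed by the filter, against 4026 of all 11510 genes tested. Of 6 feedback inhibitors, 4 were tested and Usp15 was higher in Myc_Utx lines (log2 fold change 0.55, SE 0.10, adjusted p = 0.0213). Of 58 further interferon-stimulated genes, 26 were tested, of which 7 were lower and 0 higher by the adjusted p of edgeR, beside the same 7.69% and 6.99% of all genes. Of the 26, 12 had an unadjusted p under 0.05, beside the same 4026 of 11510. Slfn2, whose direction was fixed by the filter, was among the 12. The largest change of these 7 was in Irgm2, a regulatory IRG GTPase whose counts carry the same uncertainty as those of Igtp, at 1, 2 and 3 counts in Myc_Utx lines against 24, 43 and 40 in Myc_p53 lines (log2 fold change -3.76, adjusted p = 0.0164). Cxcl10, a chemokine for T cells, followed with 1, 3 and 4 counts against 24, 25 and 36 (log2 fold change -3.01, adjusted p = 0.0195). Irgm2 and Cxcl10 passed the filter only through the Myc_p53 lines, so their direction was fixed by the filter. The helicase gene Helz2, Ifi27 and Parp10 had log2 fold changes of -1.74, -1.72 and -1.30 (adjusted p 0.0428 to 0.0448).

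Markers of macrophages, which express many interferon-stimulated genes, also differed between the groups. Of 18 macrophage markers, 10 were tested, of which 8 were lower and 1, Cd14, was higher in Myc_Utx lines, against 7.69% and 6.99% of all genes tested. The 8 had at most 5 counts in any Myc_Utx line and passed the filter only through the Myc_p53 lines. Their direction was thus fixed by the filter, and the count of 8 cannot be read against that background. The summed level of the 18 was 37.9 to 56.8 CPM in Myc_Utx lines and 70.6 to 153.1 CPM in Myc_p53 lines. Without Cd14, a choice made after its values were seen, the sum was 3.59, 7.30 and 5.57 CPM in Myc_Utx 2A, 2B and 2D and 114.3, 51.7 and 131.5 CPM in Myc_p53 1, 2 and 3. Markers at 0 counts numbered 14, 7 and 15 of 18 in the Myc_Utx lines and 2, 3 and 4 in the Myc_p53 lines. Adgre1, which encodes F4/80, was at 0 in all Myc_Utx lines and at 5, 5 and 11 counts in Myc_p53 lines, and Csf1r had 259, 39 and 243 counts in Myc_p53 lines against at most 1. The pan-leukocyte gene Ptprc had at most 3 counts in any line. Myc_p53 2 had the lowest macrophage sum of its group. Of the 28 interferon genes, it had the highest level of the group for 16. These included Ifitm2 and Ifitm3, which had higher means in Myc_Utx lines. It had the lowest level for 6, namely Ifit2, Oasl1, Samd9l, Bst2, Irgm1 and Irf3, of which Irf3 had a higher mean in Myc_Utx lines. The untested Ifit3 was also lowest in Myc_p53 2, at 5 counts against 54 and 89 in Myc_p53 1 and 3. The part of these markers in the interferon gene differences was not tested. The summed stellate and fibroblast markers were 1953 to 2692 CPM in Myc_Utx lines and 44.6, 3167 and 737.7 CPM in Myc_p53 lines. Col3a1 alone was at 1731, 2301 and 2558 CPM in Myc_Utx lines and at 10.3, 2721 and 73.9 CPM in Myc_p53 lines. Of the 6 tested stellate and fibroblast markers, 4 had a log2 fold change below 0 and 2 above 0, and none was called. The 10 lymphocyte markers summed to at most 3 counts in any line.

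**Figure D4:**
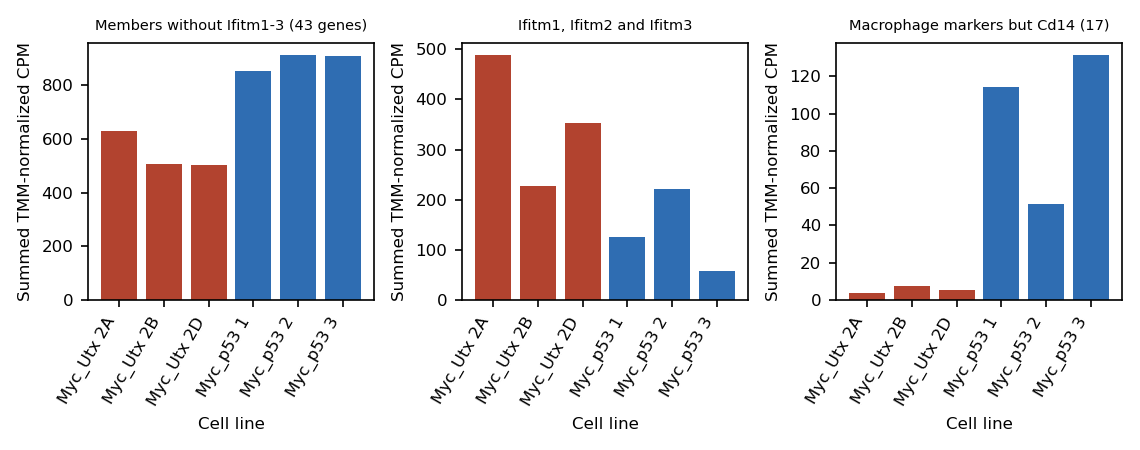
Summed TMM-normalized CPM (y axes, from 0) in each cell line (x axes), with red bars for Myc_Utx and blue bars for Myc_p53. The panels show the 43 listed genes other than Ifitm1, Ifitm2 and Ifitm3 (501.5 to 629.6 against 854.0 to 913.8 CPM), those 3 genes (226.7 to 489.0 against 58.3 to 221.7 CPM) and 17 macrophage markers without Cd14 (3.59 to 7.30 against 51.7 to 131.5 CPM). The split of the listed genes and the removal of Cd14 were chosen after the values had been seen.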

How the data were processed

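RNA of 6 cell lines was analysed, grouped by the genotype in the labels as 3 Myc_Utx and 3 Myc_p53 lines. The authors deposited raw counts per mouse Ensembl gene, without normalization, with gene coordinates (GRCm38) and a transcript length. The submitters' processing notes name Trimmomatic 0.36, STAR 2.5.3a, featureCounts 1.6.3 and DESeq2 1.20.0, whereas the methods of the study name another counter and a human build. The strand setting and the treatment of reads with several matches were not given in the sources used here.

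The fit was made with edgeR 4.0.16 under R 4.3.3. Low genes were removed with filterByExpr (minimum count 10), libraries were scaled by TMM, and groups were compared by the quasi-likelihood F test with Benjamini-Hochberg adjustment over all genes tested. SE was derived from the log2 fold change and its F statistic. Total counts were 4656103 to 6937497 per library, and the biological coefficient of variation was 33.4%. A gene at 0 in a whole group was given a floor of 3 counts per library. Intervals of count ratios cover counting error only.

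The members, roles, pathway lists and marker lists were chosen with earlier results of these data known. Every listed gene is named, with values per line for receptor chains, for genes with an adjusted p under 0.05 and for tested genes with a log2 fold change beyond 1 in size. Of the other pathway genes, ligands, kinases and at most the 5 largest called changes per direction are named. Values per line of other genes, of Irf9, Irf7 and the untested effectors among them, were added after they had been seen.

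The fit was repeated without the filter, with 10 or more counts required in each line, with DESeq2 size factors, with scaling by total counts alone, with offsets for transcript length, with DESeq2 1.42.0 and without each line in turn. The procedure was tested on simulated data. No chance test over a gene list was made. Some results are not reported here.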

Additional observations from a re-analysis of the deposited data

How the results depend on the processing

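The median log2 fold change of the tested interferon genes stayed below 0 in every alternative, between -0.985 and -0.775 when each line was left out, and 24 of the 28 genes kept their sign throughout. The number of genes called was less stable. Interferon genes higher in Myc_Utx numbered 1 with no filter, with a filter of 10 or more counts in each line and with total counts only, 0 with transcript length offsets and 4 with DESeq2, and those lower numbered 11 with DESeq2. Over all genes DESeq2 called 1281 higher and 1578 lower, and total counts only gave 601 higher and 1009 lower against 805 and 885. When each line was left out, genes called higher ranged from 3 to 836 and lower from 1 to 1118, interferon genes called higher from 0 to 2 and lower from 0 to 8, and the log2 fold change of Kdm6a from -0.587 to -0.263. The fewest calls came without Myc_Utx 2A, and none of the interferon genes was called without Myc_Utx 2A, 2B or 2D or without Myc_p53 3. In those fits at most 63 of all genes were called higher and at most 57 lower. The cause was not tested. Genes near 0 changed sign. Irf2 had -0.0054 with the stricter filter and -0.028 with total counts only, and Eif2ak2 had -0.027 and -0.047 in these fits and -0.0042 with DESeq2 size factors. When each line was left out, Irf2 ranged from -0.089 to 0.206, Eif2ak2 from -0.154 to 0.296, Stat2 from -0.769 to 0.015 and Ifngr2 from -0.262 to 0.203. DESeq2 size factors changed no call of the listed genes. No paired analysis was possible because no replicate number is common to both groups. At these depths, 18 of the 46 genes did not pass the filter, and of these Ifit3 was called without the filter and Ifit3 and Igtp with DESeq2.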
